A study of Mus musculus with 9 samples.

Results

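The TRIM, RNF and F-box genes are 3 large groups of mouse genes whose proteins attach ubiquitin to other proteins or choose which proteins receive it. They were followed here through their transcripts in a mouse B-cell lymphoma after 2 h of treatment with 2 inhibitors of the BET bromodomain proteins. Members were the genes whose symbol begins with Trim, Rnf, Fbxl, Fbxo or Fbxw and a digit, and whose mean over the 9 libraries was at least 5 CPM (counts scaled to a library total of 1000000 gene counts). This gave 101 members among the 43629 genes of the table, namely 21 TRIM, 47 RNF, 10 FBXL, 17 FBXO and 6 FBXW genes, all annotated as protein-coding. Of the 228 genes in the table with such a symbol, 34 had no count in any library and 93 had counts but lay under the minimum. The members closest above the minimum were Trim12a (5.40 CPM), Rnf31 (5.27 CPM) and Fbxl15 (5.11 CPM), and the closest genes below it were Trim5 (4.92 CPM), Fbxl17 (4.88 CPM) and Rnf113a1 (4.54 CPM). All 101 members passed the filter on low counts and were tested.

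The cells were a single clone, number 4242, of an Eµ-Myc lymphoma, in which a Myc transgene is driven by the enhancer of the immunoglobulin heavy chain, and all groups carry it. They were grown in vitro and exposed for 2 h to JQ1 at 1 µM, to RG6146 at 2.5 µM or to the vehicle DMSO, with 3 biological replicates per group. The doses of the compounds differ, so JQ1 and RG6146 were not compared at a matched dose. RNA was measured by 3′ mRNA sequencing, which counts reads near the polyadenylated end of a transcript, so a level carries no term for transcript length. Levels below are CPM scaled by TMM, a method that sets libraries to a common scale from the bulk of their genes, and changes are log2 fold changes ± SE from edgeR's quasi-likelihood fit to all 9 libraries.

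Ubiquitin is passed from an activating enzyme (E1) to a conjugating enzyme (E2), and a ligase (E3) brings the loaded E2 to the substrate. TRIM and RNF proteins mostly carry a RING domain that binds the E2 directly. F-box proteins have no such domain: they are the exchangeable receptors of SCF ligases, in which Skp1 and cullin 1 link them to the RING subunit Rbx1. FBXW proteins hold substrates with WD40 repeats and FBXL proteins with leucine-rich repeats, while FBXO proteins have other or no known substrate domains. In lymphocytes these ligases set the turnover of cell-cycle regulators, of MYC itself and of components of innate immune signalling.

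The libraries held 3410161 to 5031717 gene counts, of which the members took 0.349% to 0.382%, and a single read was worth 0.199 to 0.293 CPM. Of 14 genes listed to check B cell identity, 13 were over 1 CPM. Their summed level was 1498 to 1661 CPM under DMSO, 975 to 1106 CPM after JQ1 and 1072 to 1176 CPM after RG6146. The list includes Myc, which averaged 120 CPM under DMSO, 146 CPM after JQ1 and 191 CPM after RG6146. These sums are therefore not of lineage genes alone. Of the 13 genes of that list tested by edgeR, 1 (7.69%) was higher and 7 (53.8%) lower after each compound (adjusted p below 0.05). Over all tested genes 13.6% were higher and 15.4% lower after JQ1, and 12.5% and 13.5% after RG6146. Of 19 myeloid markers 13 were over 1 CPM, and their summed level ran from 175 to 801 CPM under DMSO, 61.3 to 300 CPM after JQ1 and 92.4 to 137 CPM after RG6146. DMSO replicate 2 and JQ1 replicate 2 were highest in their groups, at 801 and 299.9 CPM. Of the 11 myeloid markers tested by edgeR, 1 was higher and 0 lower after each compound (adjusted p below 0.05). Their median log2 fold change was -1.25 after JQ1 and -1.74 after RG6146, with 1 value above 0 each time. Csf1r averaged 22.5 CPM under DMSO, 30.9 CPM after JQ1 and 29.1 CPM after RG6146. Markers of T and NK cells summed to at most 13.2 CPM in any library, with Trac, Gzmb, Prf1 and Ncr1 at 0 throughout, and erythroid markers to at most 19.7 CPM. Among 13 stromal and endothelial markers only Vim and Pecam1 were over 1 CPM, and Dcn and Lum were at 0 in all libraries. In these bulk samples, fewer cells of a type and less RNA per cell cannot be told apart.

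The first question was how many members differed from DMSO after each compound. After JQ1, 22 of the 101 members were higher and 12 lower (adjusted p below 0.05 over all tested genes), which is 33.7% of the members. Over all 11002 tested genes 28.9% were called, 13.6% higher and 15.4% lower. In the 9065 tested genes that also reached 5 CPM on average, 15.2% were higher and 15.9% lower. The median member changed by 0.07 on the log2 scale, where the median of all tested genes was 0.00. The 3 JQ1 libraries lay wholly above the 3 DMSO libraries for 28 members and wholly below for 19, against 20.6% and 22.0% of all tested genes, while the members' shares were 27.7% and 18.8%.

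After RG6146, 22 members were higher and 11 lower, which is 32.7%. Over all tested genes 26.0% were called, 12.5% higher and 13.5% lower, and of those 9065 genes 14.0% were higher and 13.8% lower. The median member changed by 0.08, against 0.01 for all tested genes. The RG6146 libraries lay wholly above the DMSO libraries for 30 members and wholly below for 16, which is 29.7% and 15.8% of the members, against 20.1% and 20.9% of all tested genes. Both comparisons use the same 3 DMSO libraries, so they are not independent of each other.

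The balance of rises and falls depended on the scaling of the libraries. With library size scaling and no TMM, the log2 fold change of the median tested gene was -0.13 after JQ1 and -0.10 after RG6146. It gave 12 members higher and 19 lower after JQ1, and 13 higher and 14 lower after RG6146. The share of rises among the members' calls was thus 38.7% in place of 64.7% after JQ1 and 48.1% in place of 66.7% after RG6146. Among the calls over all tested genes it was 27.2% in place of 47.0% after JQ1, and 29.7% in place of 48.0% after RG6146. Scaling by the ERCC spike-ins alone gave 4 higher and 6 lower after JQ1 (40.0% rises), and 5 higher and 4 lower after RG6146 (55.6% rises). The same scaling with the replicate number as a block gave 19 higher and 12 lower after JQ1 (61.3% rises), and 22 higher and 11 lower after RG6146 (66.7% rises). Over all tested genes, rises were 37.2% of the calls after JQ1 and 42.3% after RG6146 with ERCC scaling alone. With the block they were 42.6% and 50.8%. The ERCC share of counts moved with the replicate number, at 1.35% to 1.51% in the replicates numbered 1, 1.17% to 1.22% in those numbered 2 and 0.958% to 1.13% in those numbered 3. Without DMSO replicate 2 and JQ1 replicate 2, the libraries highest in myeloid markers, 16 members were higher and 8 lower after JQ1, and 18 higher and 9 lower after RG6146. Calls that ended there included Fbxw7, Fbxw4, Fbxl5, Fbxl15, Trim12a, Trim56, Rnf26, Rnf166, Rnf167 and Rnf216 after JQ1, and Fbxo3, Fbxo9, Fbxo34, Fbxl15, Trim35, Rnf115, Rnf166 and Rnf167 after RG6146. The part of the myeloid markers in these calls was not tested. DESeq2 ended, among others, the calls of Fbxo9, Fbxo11, Fbxl15, Rnf166 and Rnf216 after both compounds, of Fbxw4, Fbxl5, Rnf26 and Rnf214 after JQ1, and of Fbxo3, Fbxo34, Trim35, Trim41, Trim44, Rnf10, Rnf19a, Rnf115 and Rnf167 after RG6146. Without RG6146 replicate 1, and likewise without RG6146 replicate 2, 14 members were higher after RG6146.

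**Figure D1:**
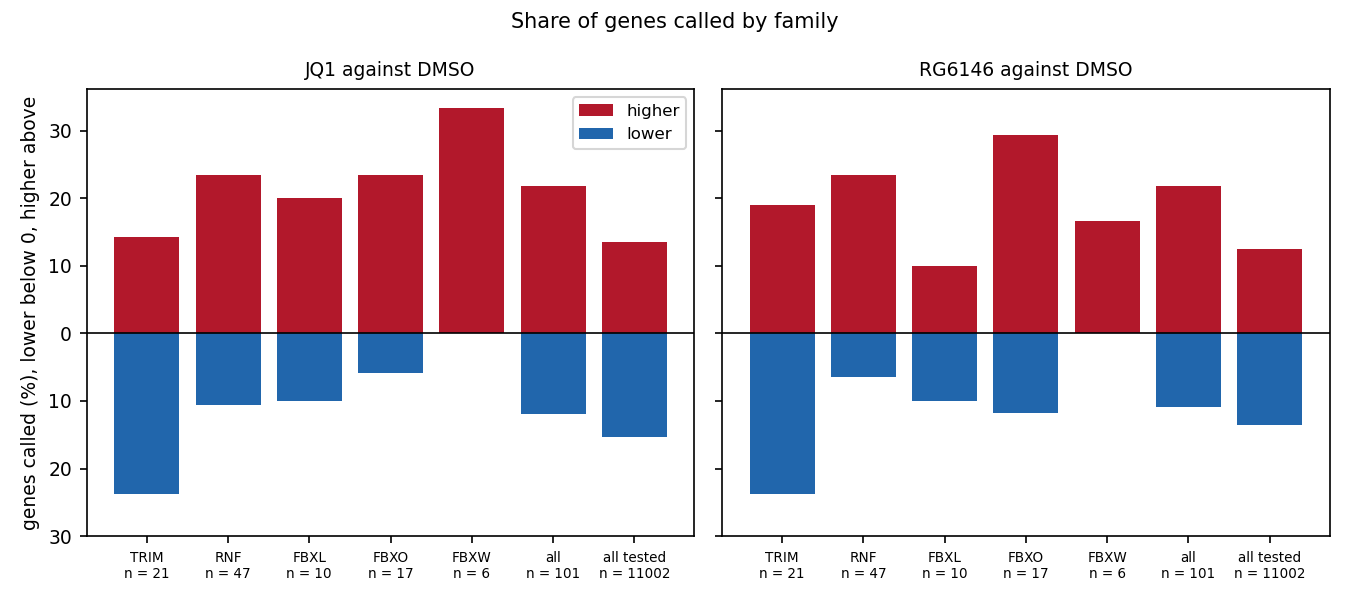
Share of members called higher (red, above 0) or lower (blue, below 0) against DMSO, in percent, by family, for all 101 members and for all 11002 tested genes, for JQ1 (left) and RG6146 (right). TRIM members had the largest share of falls (23.8% after both compounds), and FBXW members had no fall, though library size scaling gave 1 after JQ1. Among called members, Trim12a reached the level minimum through its DMSO libraries, and Fbxw4 and Fbxl15 through their treated libraries.

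The called members mostly changed by less than 2-fold. After JQ1 1 of the 22 rises and 3 of the 12 falls were over 2-fold, and after RG6146 3 of 22 and 2 of 11. Of the 67 calls of members against DMSO, 18 held under every alternative setting tried. Among them were Fbxo33, Rnf34, Rnf19b, Rnf141, Fbxo7, Trim12c and Trim2 after both compounds, Rnf19a and Trim44 after JQ1, and Rnf157 after RG6146. ERCC scaling without the block ended 48 of the 67. The level minimum bears on 3 of the members described below. Trim12a averaged at least 5 CPM under DMSO alone, and Fbxl15 and Fbxw4 after the compounds alone. A member near the minimum that is counted through 1 group is high in that group by that choice, so these calls are no support for a direction.

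Promoter letters were read from RefSeq windows on build GRCm38.p6 (mm10 in the submitters' processing notes), which reach from 250 bases before to 50 bases after an annotated start. They were found for 75 of the 101 members, 104 windows in all. The GC box letters GGGCGG, searched on both strands as were all motifs here, were in 71.2% of the member windows and in 35.7% of all 32851 windows. Windows of all genes include genes that these cells do not express. By result after JQ1, the letters were in 81.5% of 27 windows of 19 members called higher. They were in 47.4% of 19 windows of 11 members called lower, and in 74.1% of 58 windows of 45 members not called. A member with several windows counts several times here. The median window was 61.2% GC with 22 CpG for members, and 52.7% GC with 7 CpG for all windows. The ETS letters CCGGAAG were in 24.0% of member windows and 8.86% of all windows, and the letters GAAANNGAAA, which interferon response elements share, in 9.62% and 3.44%. These are matches of letters, and no factor binding was measured.

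The windows of 4 members are printed here. Fbxo33 and Rnf34 were among the largest rises, and Trim12c and Trim12a are neighbours with near-identical windows that were lower. Any part of these letters in the changes was not tested. Each is written 5′ to 3′ on the strand of its gene. Capitals mark GC box letters (GGGCGG or its reverse complement), CCAAT letters on either strand and, in the Trim12 windows, GAAANNGAAA as its reverse complement. The first GC boxes of the Rnf34 window overlap each other. The windows lie at chr12:59219434-59219733 (Fbxo33, minus strand), chr5:122849938-122850237 (Rnf34, plus strand), chr7:104353300-104353599 (Trim12c, minus strand) and chr7:104315446-104315745 (Trim12a, minus strand).
Fbxo33: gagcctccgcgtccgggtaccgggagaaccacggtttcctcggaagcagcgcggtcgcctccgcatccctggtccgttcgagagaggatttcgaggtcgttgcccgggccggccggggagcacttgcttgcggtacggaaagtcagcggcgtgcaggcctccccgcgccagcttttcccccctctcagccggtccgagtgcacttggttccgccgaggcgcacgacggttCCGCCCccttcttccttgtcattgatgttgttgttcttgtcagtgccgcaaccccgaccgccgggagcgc
Rnf34: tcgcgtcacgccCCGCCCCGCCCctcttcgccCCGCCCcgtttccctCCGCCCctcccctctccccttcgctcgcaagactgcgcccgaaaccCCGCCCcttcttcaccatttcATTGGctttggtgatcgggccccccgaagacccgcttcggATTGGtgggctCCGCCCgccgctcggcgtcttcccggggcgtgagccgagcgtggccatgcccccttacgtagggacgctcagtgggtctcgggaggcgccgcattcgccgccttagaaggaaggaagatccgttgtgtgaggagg
Trim12c: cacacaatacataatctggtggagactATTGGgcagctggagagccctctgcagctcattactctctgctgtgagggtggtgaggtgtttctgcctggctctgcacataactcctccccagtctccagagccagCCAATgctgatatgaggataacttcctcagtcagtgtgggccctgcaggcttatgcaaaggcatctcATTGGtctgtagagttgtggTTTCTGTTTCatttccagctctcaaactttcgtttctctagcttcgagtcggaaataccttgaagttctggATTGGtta
Trim12a: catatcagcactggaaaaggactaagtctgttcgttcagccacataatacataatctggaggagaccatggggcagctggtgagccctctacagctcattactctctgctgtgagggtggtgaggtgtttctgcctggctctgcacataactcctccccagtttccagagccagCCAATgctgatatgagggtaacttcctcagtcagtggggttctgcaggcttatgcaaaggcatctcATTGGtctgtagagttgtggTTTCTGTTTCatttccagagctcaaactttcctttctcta
The Fbxo33 and Rnf34 windows hold 36 and 35 CpG, and the Trim12c and Trim12a windows 3 and 1. Aligned with each other, the Trim12c and Trim12a windows share 247 of 260 bases.

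Among the F-box genes, Fbxo33 had the largest rise of all members after both compounds. It encodes an SCF receptor reported to bind the RNA- and DNA-binding protein YB-1, and lies on chromosome 12 from 59200655 to 59219725 (mm10, minus strand). Its level was 11.7, 9.67 and 10.1 CPM under DMSO, 26.9, 36.2 and 31.6 CPM after JQ1 and 33.7, 35.7 and 27.9 CPM after RG6146. All 6 treated libraries were above all 3 DMSO libraries, and the treated groups overlapped each other. The log2 fold change was 1.58 ± 0.16 after JQ1 (adjusted p = 6.95e-07) and 1.62 ± 0.15 after RG6146 (adjusted p = 6.17e-07). Mia2, the gene next to it on the other strand and named after its values were seen, was lower after JQ1 (-0.30 ± 0.08, adjusted p = 0.0136).

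Other FBXO genes rose less. Fbxo5 encodes EMI1, which inhibits the anaphase-promoting complex until mitosis. Its level was 80.7, 72.2 and 80.8 CPM under DMSO, 113, 98.5 and 113 CPM after JQ1 and 119, 94.4 and 95.9 CPM after RG6146, with no overlap between treated and DMSO libraries, and its log2 fold change was 0.47 ± 0.10 after JQ1 (adjusted p = 0.00173) and 0.40 ± 0.10 after RG6146 (adjusted p = 0.00632). Fbxo5 is named after its values were seen, and without RG6146 replicate 1 its adjusted p after RG6146 was 0.0532. Fbxo11, whose product directs the degradation of the germinal-centre repressor BCL6, stood at 70.7, 69.7 and 61.6 CPM under DMSO, 90.9, 73.1 and 89.4 CPM after JQ1 and 83.0, 86.3 and 80.2 CPM after RG6146. The groups did not overlap, though JQ1 replicate 2 was close to the DMSO libraries. On the log2 scale it changed by 0.33 ± 0.10 after JQ1 (adjusted p = 0.0187) and 0.30 ± 0.10 after RG6146 (adjusted p = 0.0294). Leaving out DMSO replicate 3, or JQ1 replicate 1 or 3 alone ended the JQ1 call of Fbxo11 (adjusted p 0.0750 to 0.0914). For Fbxo11, the RG6146 call did not hold without DMSO replicate 3, or RG6146 replicate 1 or 2, taken singly (adjusted p 0.0728 to 0.124). Fbxo9 also rose after both (0.57 and 0.47), and Fbxo34 after RG6146 (0.41), and both are named after their values were seen. Fbxo9 lost its JQ1 call when DMSO replicate 3, or JQ1 replicate 3 was left out alone (adjusted p 0.0502 to 0.118). The RG6146 call of Fbxo9 was lost without DMSO replicate 1, 2 or 3, or RG6146 replicate 1, 2 or 3, each left out alone (adjusted p 0.0590 to 0.160). Leaving out DMSO replicate 2 or 3, JQ1 replicate 1 or 3, or RG6146 replicate 1, 2 or 3 alone ended the RG6146 call of Fbxo34 (adjusted p 0.0537 to 0.188). Fbxo11 overlaps Msh6 on the opposite strand.

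Fbxo7 was the largest fall among the F-box members. Its product partners the proteasome regulator PI31 and is mutated in an inherited parkinsonian syndrome. Its level was 26.1, 19.3 and 19.7 CPM under DMSO, 12.2, 13.1 and 8.63 CPM after JQ1 and 11.4, 13.2 and 11.8 CPM after RG6146. Every treated library was below every DMSO library, and DMSO replicate 1 was higher than the other DMSO libraries. The fitted log2 fold change was -0.94 ± 0.18 after JQ1 (adjusted p = 0.000732) and -0.85 ± 0.18 after RG6146 (adjusted p = 0.00183). Fbxo3, which gave 26.3, 32.1 and 31.9 CPM under DMSO, 24.4, 25.7 and 20.4 CPM after JQ1 and 19.2, 20.5 and 25.9 CPM after RG6146, was below DMSO in all treated libraries and passed the test after RG6146 (-0.46 ± 0.15, adjusted p = 0.0267) but not after JQ1 (-0.35 ± 0.14, adjusted p = 0.0797). For Fbxo3, the RG6146 call did not hold without DMSO replicate 2 or 3, or RG6146 replicate 1 or 2, taken singly (adjusted p 0.0900 to 0.125). The difference between the compounds for Fbxo3 was -0.11 (95% interval -0.42 to 0.20). Of the 17 FBXO members, 4 were higher (23.5%) and 1 lower (5.88%) after JQ1, against 13.6% and 15.4% of all tested genes. After RG6146, 5 were higher (29.4%) and 2 lower (11.8%), against 12.5% and 13.5%. The FBXO medians were 0.31 after JQ1 and 0.30 after RG6146. Under library size scaling the counts were 2 and 2 after each compound.

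Fbxw7, the receptor that sends MYC and cyclin E to degradation, rose modestly. Its level was 82.4, 77.0 and 75.8 CPM under DMSO, 89.6, 104 and 105 CPM after JQ1 and 110.1, 108 and 105 CPM after RG6146. The DMSO libraries lay below all treated libraries. The log2 fold change was 0.34 ± 0.09 after JQ1 (adjusted p = 0.00598) and 0.46 ± 0.09 after RG6146 (adjusted p = 0.000684), and the JQ1 call ended with library size scaling and without DMSO replicate 2 and JQ1 replicate 2 together. The gene models Gm37240 and Gm37726 overlap it. Fbxw4, a receptor of low level, gave 3.76, 5.40 and 4.32 CPM under DMSO, 8.42, 9.76 and 5.75 CPM after JQ1 and 9.35, 6.58 and 6.36 CPM after RG6146. All treated libraries were above DMSO, and the test was passed after JQ1 (0.86 ± 0.27, adjusted p = 0.0244) and missed after RG6146 (0.75 ± 0.28, adjusted p = 0.0528). Fbxw4 lost its JQ1 call when DMSO replicate 1 or 3, or JQ1 replicate 1 or 2 was left out alone (adjusted p 0.0607 to 0.10). It averaged at least 5 CPM after the compounds alone, so this call is no support for a direction. Fbxw11, the beta-TrCP paralogue that recognises phosphorylated IκB and β-catenin, did not pass the test (-0.28 ± 0.14 after JQ1, adjusted p = 0.155, and -0.20 ± 0.14 after RG6146, adjusted p = 0.327). Its levels were 31.2, 29.0 and 28.1 CPM under DMSO, 24.6, 25.7 and 22.2 CPM after JQ1 and 24.6, 31.6 and 20.7 CPM after RG6146, so the RG6146 group overlapped DMSO. Of the 6 FBXW members 2 were higher after JQ1 (33.3%) and 1 after RG6146 (16.7%), against 13.6% and 12.5% of all tested genes. None of the 6 was lower, against 15.4% and 13.5%. Under library size scaling none was higher and 1 was lower after JQ1. Fbxw4, 1 of the 2 rises after JQ1, reached the level minimum through its treated libraries, so the share of 33.3% leans on that choice.

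Among the 10 FBXL members, 2 were higher and 1 lower after JQ1, and 1 higher and 1 lower after RG6146. Of all tested genes 13.6% were higher and 15.4% lower after JQ1, or 28.9% called. After RG6146 those shares were 12.5% and 13.5%, or 26.0% called. Fbxl15, whose product targets the ligase Smurf1, rose from low levels: 4.33, 2.84 and 2.88 CPM under DMSO, 6.10, 5.95 and 6.27 CPM after JQ1 and 6.16, 6.33 and 5.68 CPM after RG6146. The treated and DMSO libraries did not overlap, and the change was 0.84 ± 0.27 after JQ1 (adjusted p = 0.0257) and 0.82 ± 0.27 after RG6146 (adjusted p = 0.0302). Cuedc2 overlaps Fbxl15 on the opposite strand. Fbxl15 averaged at least 5 CPM after the compounds alone, so its calls are no support for a direction. The JQ1 call of Fbxl15 was lost without DMSO replicate 2 or 3, or JQ1 replicate 1 or 3, each left out alone (adjusted p 0.0633 to 0.0855). Leaving out DMSO replicate 2 or 3, or RG6146 replicate 1, 2 or 3 alone ended the RG6146 call of Fbxl15 (adjusted p 0.0528 to 0.10). Fbxl5, the iron sensor that controls the iron regulatory protein IRP2, fell: 43.6, 43.8 and 42.2 CPM under DMSO, 34.1, 33.3 and 36.1 CPM after JQ1 and 31.9, 31.4 and 31.8 CPM after RG6146. The DMSO libraries were within 2 CPM of each other and above all treated libraries, and the log2 fold change was -0.33 ± 0.10 after JQ1 (adjusted p = 0.0185) and -0.45 ± 0.10 after RG6146 (adjusted p = 0.00262). For Fbxl5, the JQ1 call did not hold without DMSO replicate 2, or JQ1 replicate 1 or 2, taken singly (adjusted p 0.0575 to 0.0618). Fbxl2 passed after JQ1 only at 0.39 ± 0.12, with overlapping libraries, and its difference between the compounds was -0.26 (95% interval -0.53 to -0.0020). It is named, like Fbxl5, after its values were seen. Fbxl2 lost its JQ1 call when DMSO replicate 1 or 2, or JQ1 replicate 1 or 3 was left out alone (adjusted p 0.0715 to 0.119). Fbxl12 did not pass (0.42 ± 0.17 after JQ1, adjusted p = 0.0743, and 0.39 ± 0.17 after RG6146, adjusted p = 0.105), and its treated libraries reached down into the DMSO range: 27.6, 27.6 and 33.3 CPM under DMSO, 40.4, 32.4 and 46.0 CPM after JQ1 and 34.2, 32.9 and 48.8 CPM after RG6146.

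Among the RNF genes, 11 of 47 were higher (23.4%) and 5 lower (10.6%) after JQ1, against 13.6% and 15.4% of all tested genes. After RG6146, 11 were higher (23.4%) and 3 lower (6.38%), against 12.5% and 13.5%. Library size scaling gave 7 higher and 7 lower after JQ1, and 7 and 5 after RG6146. Among RNF members Rnf34 had the largest rise after JQ1, and Rnf19b, described below, the largest after RG6146. Rnf34 encodes a RING ligase that acts on death-receptor caspases and on p53, and lies on chromosome 5. Its level was 22.6, 23.0 and 21.8 CPM under DMSO, 46.5, 39.3 and 45.2 CPM after JQ1 and 46.1, 49.6 and 46.1 CPM after RG6146. The DMSO libraries lay within 1.5 CPM of each other, and the treated libraries were well above them. The log2 fold change was 0.96 ± 0.11 after JQ1 (adjusted p = 3.31e-06) and 1.07 ± 0.11 after RG6146 (adjusted p = 1.05e-06). The gene overlaps Kdm2b on the opposite strand, and whether the counting used strand is not given in the sources used here, so reads of the 2 genes may not be separated. Kdm2b, itself an F-box gene, changed by 0.26 ± 0.08 after JQ1 and 0.30 ± 0.08 after RG6146.

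The RBR ligases, which pass ubiquitin through a cysteine of their own before the substrate, had 3 of 5 members higher after each compound and none lower, where 13.6% of all tested genes were higher after JQ1 and 12.5% after RG6146. Rnf19b, first described as a membrane ligase of natural killer cells, stood at 24.8, 19.0 and 21.1 CPM under DMSO, 46.7, 35.7 and 40.5 CPM after JQ1 and 52.7, 48.6 and 41.1 CPM after RG6146. Both treated groups were above DMSO, and their own ranges overlapped. Its log2 fold change was 0.91 ± 0.14 after JQ1 (adjusted p = 7.06e-05) and 1.12 ± 0.14 after RG6146 (adjusted p = 8.25e-06). Rnf19a, or dorfin, a related membrane ligase, stood at 9.22, 8.53 and 8.87 CPM under DMSO, 17.7, 16.2 and 15.2 CPM after JQ1 and 10.9, 15.2 and 18.4 CPM after RG6146. RG6146 replicate 1 was the treated library closest to DMSO. The change was 0.88 ± 0.19 after JQ1 (adjusted p = 0.00200) and 0.74 ± 0.19 after RG6146 (adjusted p = 0.00833), and without RG6146 replicate 3 the adjusted p after RG6146 was 0.0608. Rnf216, named after its values were seen, rose by 0.33 ± 0.11 after JQ1 (adjusted p = 0.0266) and 0.34 ± 0.11 after RG6146 (adjusted p = 0.0222). The JQ1 call of Rnf216 was lost without DMSO replicate 3, or JQ1 replicate 2, each left out alone (adjusted p 0.0884 to 0.116). Leaving out DMSO replicate 3, or RG6146 replicate 1 or 2 alone ended the RG6146 call of Rnf216 (adjusted p 0.0592 to 0.0781). Rnf31, the HOIP subunit that builds linear ubiquitin chains, did not pass. For Rnf31 the levels were 5.64, 5.69 and 5.99 CPM under DMSO, 5.89, 4.28 and 4.97 CPM after JQ1 and 5.24, 6.07 and 3.63 CPM after RG6146, which overlap, and the log2 fold change was -0.19 ± 0.27 after JQ1, adjusted p = 0.646, and -0.22 ± 0.27 after RG6146, adjusted p = 0.601. Rnf31 also overlaps Irf9 on its own strand. Under DESeq2 2 of the 5 were higher after JQ1 and 1 after RG6146.

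**Figure D2:**
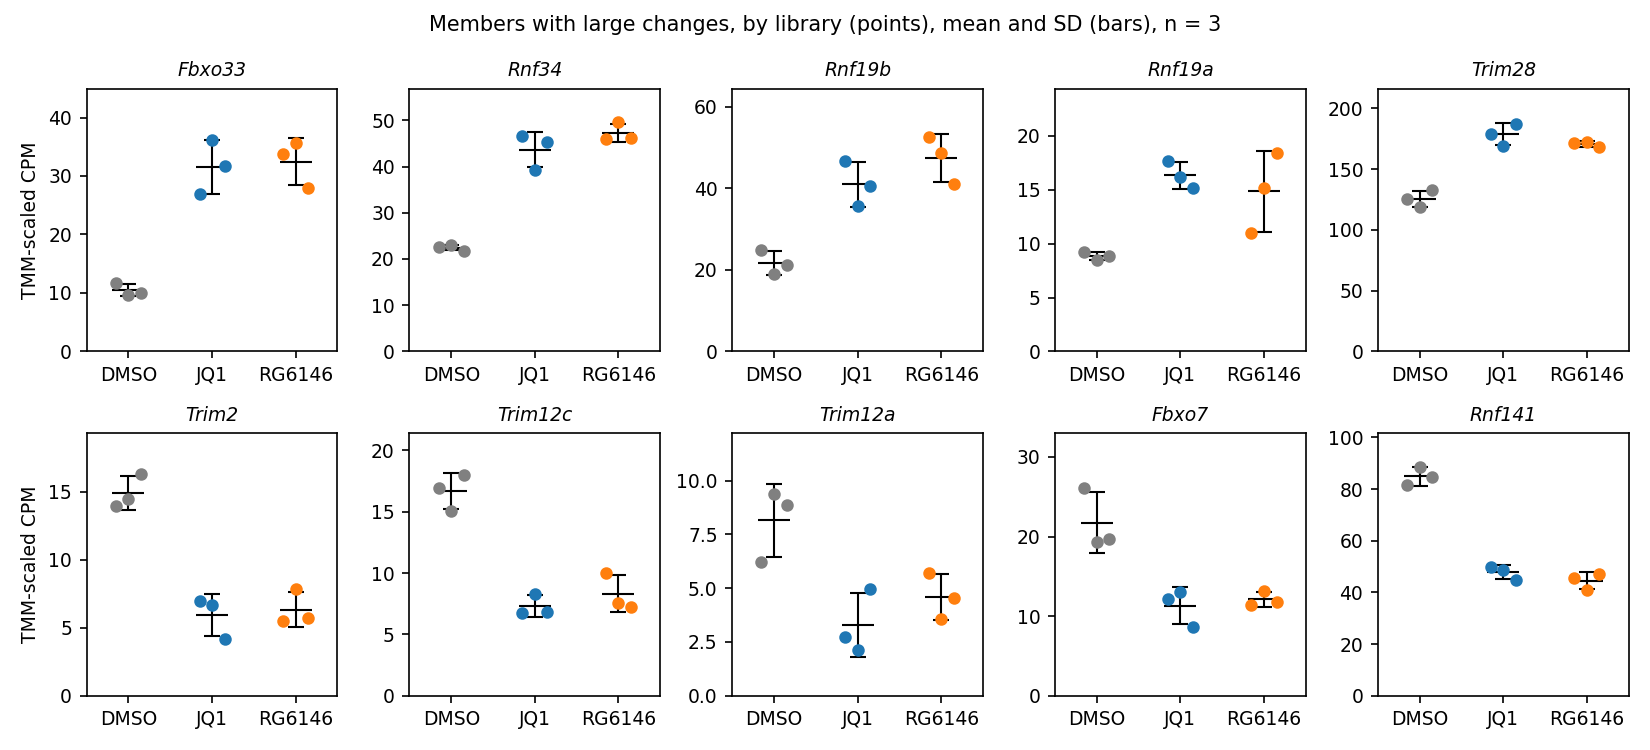
TMM-scaled CPM (y axis, from 0) of 10 members in each of the 9 libraries (points), with the mean and SD of the 3 libraries of a group (black bars). Fbxo33, Rnf34, Rnf19b, Rnf19a and Trim28 lie higher in all treated libraries than under DMSO, and Trim2, Trim12c, Trim12a, Fbxo7 and Rnf141 lower.

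Several further RNF genes rose. Rnf157, a ligase mostly studied in neurons, stood at 19.7, 23.0 and 24.0 CPM under DMSO, 33.3, 33.1 and 34.0 CPM after JQ1 and 33.7, 35.7 and 37.9 CPM after RG6146. The DMSO and treated libraries were well apart, and the log2 fold change was 0.59 ± 0.12 after JQ1 (adjusted p = 0.000916) and 0.69 ± 0.12 after RG6146 (adjusted p = 0.000259). Rnf6, a ligase of the androgen receptor, stood at 55.7, 60.6 and 65.5 CPM under DMSO, 91.8, 82.8 and 87.1 CPM after JQ1 and 83.5, 83.8 and 95.4 CPM after RG6146, again without overlap, and rose by 0.53 ± 0.09 after JQ1 (adjusted p = 0.000383) and 0.53 ± 0.09 after RG6146 (adjusted p = 0.000388). Rnf166 gave 13.0, 10.2 and 11.3 CPM under DMSO, 16.8, 16.2 and 14.4 CPM after JQ1 and 15.0, 19.5 and 16.6 CPM after RG6146 and rose by 0.45 ± 0.17 after JQ1 (adjusted p = 0.0490) and 0.56 ± 0.16 after RG6146 (adjusted p = 0.0182). For Rnf166, the JQ1 call did not hold without DMSO replicate 2 or 3, JQ1 replicate 1, 2 or 3, or RG6146 replicate 1 or 3, taken singly (adjusted p 0.0518 to 0.146). Rnf166 lost its RG6146 call when DMSO replicate 2 or 3, or RG6146 replicate 2 was left out alone (adjusted p 0.0515 to 0.0918). Rnf166 overlaps the gene model Gm20388 on the opposite strand. Further RNF calls, named after their values were seen, were rises of Rnf10 (0.48 and 0.36) and Rnf149 (0.45 and 0.44) after both compounds and of Rnf115 (0.40) after RG6146. The RG6146 call of Rnf10 was lost without DMSO replicate 3, or RG6146 replicate 1 or 3, each left out alone (adjusted p 0.0595 to 0.0849). Leaving out DMSO replicate 2, or RG6146 replicate 1 or 2 alone ended the RG6146 call of Rnf115 (adjusted p 0.0552 to 0.128).

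Rnf141 had the largest fall among the RNF members. Little is known of it beyond a link to spermatogenesis. Its level was 81.4, 88.7 and 84.6 CPM under DMSO, 49.9, 48.6 and 44.7 CPM after JQ1 and 45.4, 40.7 and 47.3 CPM after RG6146. The treated libraries were between 40.7 and 49.9 CPM and every DMSO library was above 81 CPM. The fitted log2 fold change was -0.83 ± 0.10 after JQ1 (adjusted p = 4.56e-06) and -0.93 ± 0.10 after RG6146 (adjusted p = 1.47e-06), and the call held under every alternative tried. Rnf145, a sterol-responsive ligase of the endoplasmic reticulum that degrades HMG-CoA reductase, fell from a high level: 144, 166 and 166 CPM under DMSO, 115, 92.3 and 115 CPM after JQ1 and 109.7, 99.4 and 123 CPM after RG6146. The groups did not overlap, and the change was -0.56 ± 0.10 after JQ1 (adjusted p = 0.000487) and -0.52 ± 0.10 after RG6146 (adjusted p = 0.00109). Rnf167, a ligase of endosomes and lysosomes, stood at 21.4, 31.3 and 29.0 CPM under DMSO, 19.8, 15.9 and 17.0 CPM after JQ1 and 17.1, 17.5 and 20.9 CPM after RG6146 and fell by 0.62 ± 0.16 on the log2 scale after JQ1 (adjusted p = 0.00720) and by 0.55 ± 0.16 after RG6146 (adjusted p = 0.0163). For Rnf167, the RG6146 call did not hold without DMSO replicate 2 or 3, or RG6146 replicate 1 or 2, taken singly (adjusted p 0.0580 to 0.0843). Without DMSO replicate 2 and JQ1 replicate 2 it changed by -0.44 (adjusted p = 0.117) after JQ1 and -0.44 (adjusted p = 0.0896) after RG6146, and DESeq2 gave an adjusted p of 0.0726 after RG6146. Rnf167 overlaps Slc25a11 on the opposite strand.

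Rnf26 and Rnf214 passed the test after JQ1 alone. Rnf26, a ligase of the endoplasmic reticulum that organises endosomes, gave 18.8, 23.0 and 22.1 CPM under DMSO, 14.9, 16.7 and 10.98 CPM after JQ1 and 12.5, 18.5 and 22.0 CPM after RG6146. RG6146 replicate 3 was inside the DMSO range, and RG6146 replicates 1 and 2 were below it. Its log2 fold change was -0.57 ± 0.20 after JQ1, adjusted p = 0.0393, and -0.26 ± 0.20 after RG6146, adjusted p = 0.356, and the difference between the compounds was 0.31 (95% interval -0.12 to 0.74). Rnf26 lost its JQ1 call when DMSO replicate 2 or 3, JQ1 replicate 1 or 3, or RG6146 replicate 2 was left out alone (adjusted p 0.0542 to 0.165). Rnf214 gave 21.6, 18.8 and 18.0 CPM under DMSO, 14.5, 13.1 and 12.03 CPM after JQ1 and 16.0, 14.4 and 15.2 CPM after RG6146, with all treated libraries below DMSO. It changed by -0.56 ± 0.15 after JQ1, adjusted p = 0.00946, and -0.36 ± 0.15 after RG6146, adjusted p = 0.0857. Bace1 and Pcsk7 overlap it on the opposite strand. Its difference between the compounds was 0.20 (95% interval -0.13 to 0.52), and without DMSO replicate 1 its adjusted p after JQ1 was 0.0526. Of the 13 membrane-bound RNF members 3 were higher after each compound (Rnf149, Rnf19a and Rnf19b), while 3 were lower after JQ1 (Rnf145, Rnf167 and Rnf26) and 2 after RG6146. That is 23.1% higher and 23.1% lower after JQ1, and 23.1% and 15.4% after RG6146. Shares over all tested genes were 13.6% and 15.4% after JQ1, and 12.5% and 13.5% after RG6146.

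None of the 9 RNF members that act on histones, DNA breaks or SUMO-marked proteins was called after either compound by edgeR, by DESeq2 or with ERCC scaling, and Rnf138 alone was lower, after RG6146, under library size scaling. At an unadjusted p below 0.05 there were 0 after JQ1 and 1, again Rnf138, after RG6146. Over all 11002 tested genes edgeR called 28.9% after JQ1 and 26.0% after RG6146. Its unadjusted p was below 0.05 for 4346 and 4050 of them. Rnf138 is named after its values were seen. Rnf2, the catalytic RING1B subunit of the Polycomb complex PRC1, stood at 70.7, 66.0 and 60.4 CPM under DMSO, 61.4, 83.3 and 74.0 CPM after JQ1 and 78.0, 72.6 and 65.9 CPM after RG6146, with overlapping groups. Its log2 fold change was 0.15 ± 0.11 after JQ1, adjusted p = 0.354, and 0.13 ± 0.11 after RG6146, adjusted p = 0.414. Rnf20 and Rnf40, which together ubiquitinate histone H2B, did not pass either: Rnf20 changed by 0.03 ± 0.09 after JQ1, adjusted p = 0.836, and 0.06 ± 0.09 after RG6146, adjusted p = 0.692. For Rnf40 the values were 0.17 ± 0.14 after JQ1, adjusted p = 0.387, and -0.13 ± 0.14 after RG6146, adjusted p = 0.535. Rnf20 was among the 5 members with the highest level, at 106, 104 and 119 CPM under DMSO, 118, 97.3 and 121 CPM after JQ1 and 113, 119.9 and 110.2 CPM after RG6146. Rnf8 and Rnf168, which act in sequence at DNA double-strand breaks, did not pass: Rnf8 changed by 0.17 ± 0.12 after JQ1, adjusted p = 0.293, and 0.08 ± 0.12 after RG6146, adjusted p = 0.681. For Rnf168 the values were -0.09 ± 0.10 after JQ1, adjusted p = 0.558, and -0.04 ± 0.10 after RG6146, adjusted p = 0.807. For these 5 genes the 95% intervals against DMSO lay within -0.42 and 0.46, so changes beyond 1.5-fold were outside them. A missed threshold does not show that their levels were the same.

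Among the 21 TRIM genes, 3 were higher (14.3%) and 5 lower (23.8%) after JQ1, against 13.6% and 15.4% of all tested genes. After RG6146, 4 were higher (19.0%) and 5 lower (23.8%), against 12.5% and 13.5%. Under ERCC scaling none was higher, and 4 were lower after JQ1 and 2 after RG6146, while ERCC scaling with the replicate block gave the same counts as TMM. Trim12a, 1 of the 5 that were lower after JQ1, reached the level minimum through its DMSO libraries. Trim28 had the highest level of all members after both compounds. It encodes KAP1, the corepressor that KRAB zinc finger proteins bring to retroelements, and lies on chromosome 7. Its level was 125, 119 and 132 CPM under DMSO, 179, 169 and 187 CPM after JQ1 and 172, 172 and 168 CPM after RG6146. The treated libraries were all above 165 CPM and the DMSO libraries all below 135 CPM. Its log2 fold change was 0.51 ± 0.08 after JQ1 (adjusted p = 7.39e-05) and 0.44 ± 0.08 after RG6146 (adjusted p = 0.000311). Zbtb45 overlaps it on the opposite strand. The related TIF1 genes Trim24, a nuclear receptor coregulator, and Trim33, a regulator of SMAD signalling, did not pass. Trim24 changed by 0.28 ± 0.20 after JQ1, adjusted p = 0.330, and 0.26 ± 0.20 after RG6146, adjusted p = 0.384. Trim33 changed by 0.18 ± 0.11 after JQ1, adjusted p = 0.228, and 0.14 ± 0.11 after RG6146, adjusted p = 0.383.

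Trim27 and Trim41 rose. Trim27, a nuclear ligase with roles in innate immune signalling and transcription, stood at 69.0, 67.1 and 70.2 CPM under DMSO, 103, 108 and 105 CPM after JQ1 and 92.1, 101 and 90.4 CPM after RG6146. The 3 groups were each narrow, and DMSO was lowest. The change was 0.61 ± 0.08 after JQ1 (adjusted p = 2.34e-05) and 0.46 ± 0.08 after RG6146 (adjusted p = 0.000458). Trim41, a ligase of protein kinase C, stood at 12.8, 11.7 and 11.3 CPM under DMSO, 19.6, 18.3 and 17.8 CPM after JQ1 and 16.4, 17.0 and 18.4 CPM after RG6146, without overlap between treated and DMSO libraries. It rose by 0.64 ± 0.15 after JQ1 (adjusted p = 0.00322) and 0.53 ± 0.15 after RG6146 (adjusted p = 0.0125), and DESeq2 ended the RG6146 call. It overlaps Rack1 on the opposite strand. Trim35 passed the test after RG6146 (0.43 ± 0.12, adjusted p = 0.0161) and missed it after JQ1 (0.33 ± 0.12, adjusted p = 0.0524); it is named after its values were seen. The RG6146 call of Trim35 was lost without DMSO replicate 2 or 3, or RG6146 replicate 2, each left out alone (adjusted p 0.0575 to 0.0671).

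Trim2 had the largest fall of a member called after both compounds. It encodes a ligase of neurofilament light chain and lies on chromosome 3. Its level was 13.9, 14.5 and 16.3 CPM under DMSO, 6.94, 6.66 and 4.18 CPM after JQ1 and 5.47, 7.84 and 5.68 CPM after RG6146. All treated libraries were below 8 CPM and all DMSO libraries above 13 CPM. The log2 fold change was -1.32 ± 0.22 after JQ1 (adjusted p = 0.000225) and -1.24 ± 0.22 after RG6146 (adjusted p = 0.000408). Trim44, an unusual TRIM protein without a RING domain, stood at 31.4, 21.3 and 24.9 CPM under DMSO, 16.2, 11.2 and 16.5 CPM after JQ1 and 18.2, 17.0 and 15.7 CPM after RG6146. The groups did not overlap, with DMSO replicate 1 the highest library. It fell by 0.83 ± 0.18 on the log2 scale after JQ1 (adjusted p = 0.00159) and by 0.62 ± 0.17 after RG6146 (adjusted p = 0.0127). Leaving out DMSO replicate 1, or RG6146 replicate 3 alone ended the RG6146 call of Trim44 (adjusted p 0.0529 to 0.0871).

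At the Trim5 cluster on chromosome 7, neighbouring genes had lower levels in the treated libraries, though not all passed the test. Their human counterpart, TRIM5, restricts retroviruses by binding the capsid, and rodents carry several copies. Trim12c, from 104338754 to 104353362 on the minus strand, stood at 16.9, 15.1 and 18.0 CPM under DMSO, 6.73, 8.33 and 6.80 CPM after JQ1 and 10.03, 7.59 and 7.27 CPM after RG6146. Its treated libraries were below all DMSO libraries, and it fell by 1.20 ± 0.19 on the log2 scale after JQ1 (adjusted p = 0.000127) and by 1.01 ± 0.19 after RG6146 (adjusted p = 0.000591). Trim12a, from 104299894 to 104315466, stood at 6.21, 9.38 and 8.87 CPM under DMSO, 2.74, 2.14 and 4.97 CPM after JQ1 and 5.70, 3.54 and 4.54 CPM after RG6146. It fell after JQ1 (-1.32 ± 0.32, adjusted p = 0.00476) and missed the threshold after RG6146 (-0.80 ± 0.30, adjusted p = 0.0601), although all 3 RG6146 libraries were below DMSO. The difference between the compounds was 0.51 (95% interval -0.21 to 1.23). Without DMSO replicate 2 and JQ1 replicate 2 together, the adjusted p of Trim12a after JQ1 was 0.0760. Trim12a averaged at least 5 CPM under DMSO alone, so its call is no support for a direction.

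Trim5 and Trim34a lie beside them, were under the level minimum and are no members. Their level was highest under DMSO, and they are given as values, with no test. Trim34a is named after its values were seen. Trim5 stood at 8.28, 7.39 and 7.43 CPM under DMSO, 2.74, 4.05 and 4.18 CPM after JQ1 and 2.74, 4.30 and 2.50 CPM after RG6146. Trim34a stood at 6.02, 5.40 and 7.91 CPM under DMSO, 1.68, 2.86 and 1.83 CPM after JQ1 and 2.74, 3.04 and 1.59 CPM after RG6146. In both genes all treated libraries were below all DMSO libraries. Trim30a, also under the minimum and named after its values were seen, did not pass the test. It stood at 3.76, 3.41 and 3.84 CPM under DMSO, and changed by -0.61 ± 0.34 after JQ1 (adjusted p = 0.193). After RG6146 the change of Trim30a was -0.51 ± 0.33 (adjusted p = 0.287). The RefSeq windows of Trim34a, Trim5, Trim12a, Trim12c and Trim30a all hold the letters GAAANNGAAA shown in the Trim12 windows above. Of all windows 3.44% hold them. How reads that match several places were counted is not given in the sources used here. The counts of these related genes may therefore share reads, and their levels cannot be taken as independent of one another.

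**Figure D3:**
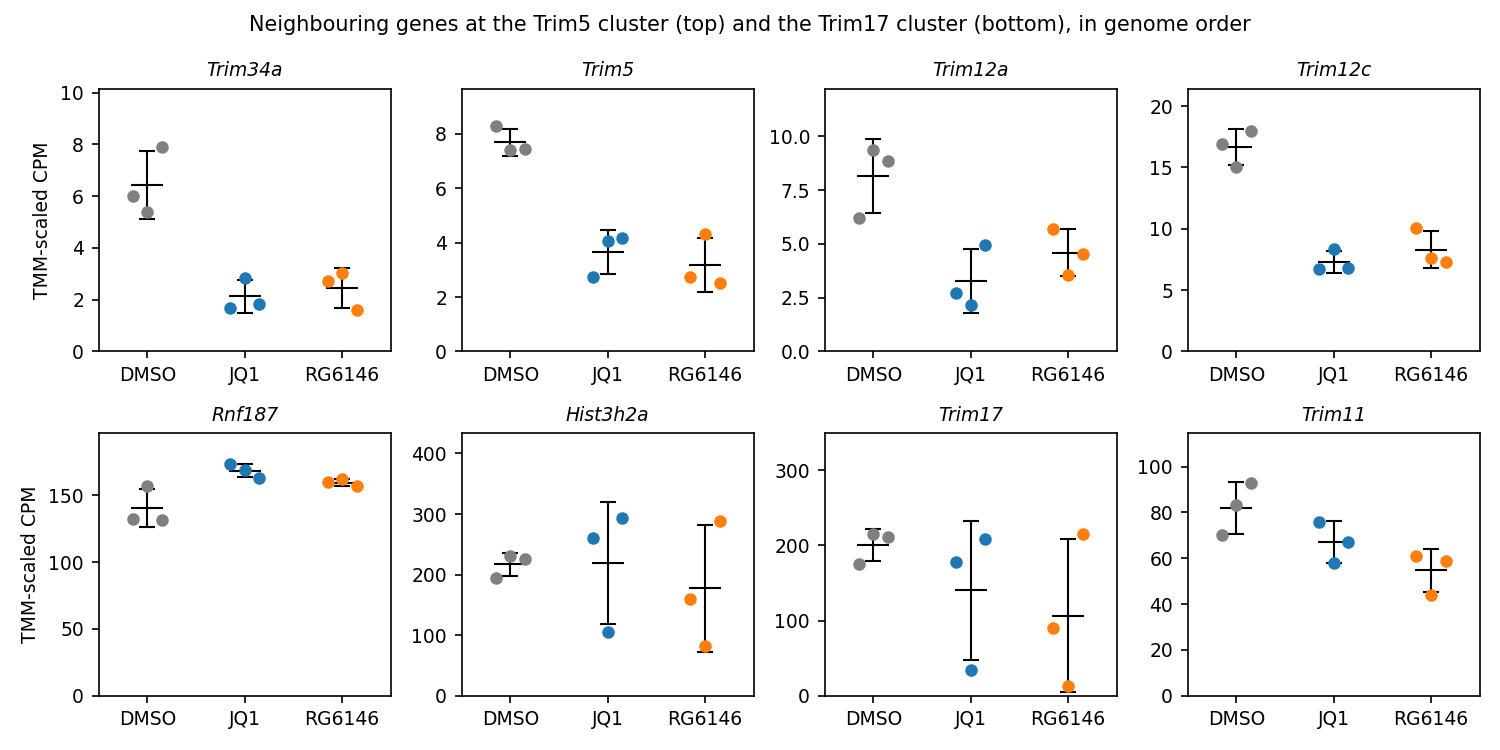
TMM-scaled CPM (y axis, from 0) in each library (points), with the mean and SD of 3 libraries (black bars), for neighbouring genes in genome order at the Trim5 cluster (top) and the Trim17 cluster (bottom). Trim34a, Trim5, Trim12a and Trim12c lie lower in all treated libraries than under DMSO, and Trim17 spans 13.2 to 215 CPM among the RG6146 libraries.

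Trim56 and Trim25 act in antiviral sensing. Trim56, a ligase linked to the STING pathway, stood at 51.9, 62.3 and 50.8 CPM under DMSO, 41.0, 35.2 and 41.0 CPM after JQ1 and 41.3, 37.7 and 38.2 CPM after RG6146. Its treated libraries were all below DMSO, and it fell by 0.49 ± 0.11 on the log2 scale after JQ1 (adjusted p = 0.00266) and by 0.49 ± 0.11 after RG6146 (adjusted p = 0.00293). Trim25, the ligase that activates the RNA sensor RIG-I, did not pass (0.04 ± 0.10 after JQ1, adjusted p = 0.791, and 0.06 ± 0.10 after RG6146, adjusted p = 0.727), and its groups overlapped: 106, 103 and 103 CPM under DMSO, 96.2, 128 and 96.5 CPM after JQ1 and 101, 109.6 and 113 CPM after RG6146. Of the 7 TRIM members linked to antiviral and innate immune signalling, 1 was higher and 3 lower after JQ1, and 1 higher and 2 lower after RG6146. That is 14.3% and 42.9% after JQ1, and 14.3% and 28.6% after RG6146. Over all tested genes 13.6% were higher and 15.4% lower after JQ1, and 12.5% and 13.5% after RG6146. Trim12a, 1 of the 3 that were lower after JQ1, reached the level minimum through its DMSO libraries. Without DMSO replicate 2 and JQ1 replicate 2, the libraries highest in myeloid markers, the log2 fold change of Trim56 after JQ1 was -0.32 (adjusted p = 0.0654), so its call ended while the direction held.

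The highest TRIM level under DMSO was that of Trim17, and it varied most. Trim17, a RING ligase known from neuronal apoptosis, stood at 175, 215 and 210.5 CPM under DMSO, 178, 34.5 and 208 CPM after JQ1 and 90.5, 13.2 and 215 CPM after RG6146. JQ1 replicate 2 and RG6146 replicates 1 and 2 were low, and the other 6 libraries were between 175 and 215 CPM. The log2 fold change was -0.52 ± 0.99 after JQ1, adjusted p = 0.753, and -0.91 ± 0.99 after RG6146, adjusted p = 0.573, so no difference was detectable. Its gene model begins at the same base as the histone gene Hist3h2a, position 58954685 of chromosome 11 on the same strand, and reads of the 2 cannot be told apart where they overlap. Hist3h2a, named after its values were seen, was lowest in JQ1 replicate 2 and RG6146 replicate 2 too: 194, 231 and 225 CPM under DMSO, 259.9, 105 and 293 CPM after JQ1 and 160.1, 81.7 and 289 CPM after RG6146. Trim11, the next gene on that strand, stood at 70.2, 83.0 and 92.8 CPM under DMSO, 76.0, 58.1 and 67.2 CPM after JQ1 and 61.1, 44.0 and 58.8 CPM after RG6146. It was below DMSO in all RG6146 libraries and fell there (-0.58 ± 0.14, adjusted p = 0.00823), with JQ1 replicate 1 inside the DMSO range and the test missed after JQ1 (-0.29 ± 0.14, adjusted p = 0.149). The difference between the compounds for Trim11 was -0.29 (95% interval -0.60 to 0.01). Rnf187, a coactivator of JUN on the other side and also among the 5 highest members, stood at 132, 157 and 132 CPM under DMSO, 173, 169 and 163 CPM after JQ1 and 159.8, 162 and 157 CPM after RG6146. It rose after JQ1 (0.27 ± 0.08, adjusted p = 0.0202), and the RG6146 value was 0.19 ± 0.08, adjusted p = 0.104. For Rnf187, the JQ1 call did not hold without DMSO replicate 1 or 3, or JQ1 replicate 1, taken singly (adjusted p 0.0724 to 0.0853).

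**Figure D4:**
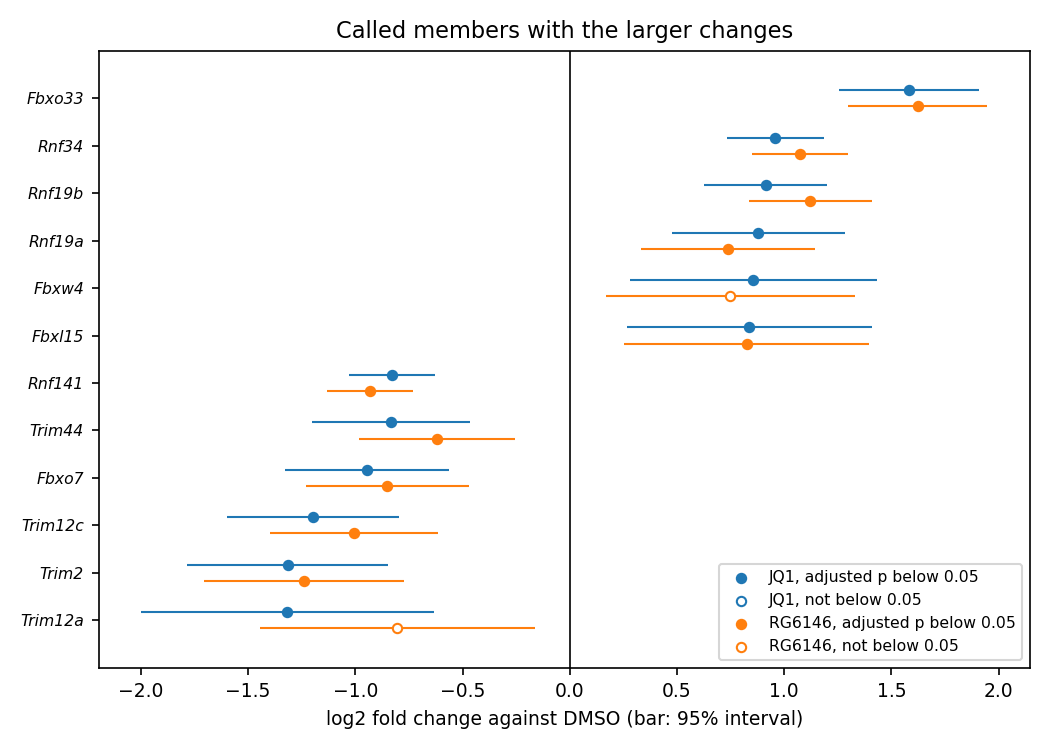
Log2 fold change against DMSO (x axis; point, with its 95% interval as a bar) for the 12 members called after at least 1 compound with a change over 0.8 in size after either, for JQ1 (blue) and RG6146 (orange); filled points passed the adjusted p of 0.05. Fbxo33 is the highest point (1.58 and 1.62) and Trim2 (-1.32 and -1.24) and Trim12a (-1.32 and -0.80) are the lowest for JQ1, all set against the same DMSO libraries.

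The direct comparison of RG6146 with JQ1, whose difference does not use the DMSO libraries, called none of the 101 members. Of all 11002 tested genes it called 1, or 0.00909%. DESeq2 and limma voom also called 0 members. At an unadjusted p below 0.05 edgeR gave 3 of the 101 members, beside 427 of all 11002 tested genes. The 3 members were Fbxl2 (-0.26), Rnf40 (-0.30) and Rnf114 (0.40), named after their values were seen. The smallest adjusted p of any member was 0.999. The median absolute difference between the compounds was 0.09 on the log2 scale. The 95% interval lay within 2-fold either way for 98 of the 101 members and within 1.5-fold for 76. It reached past 2-fold for Trim12a, Trim17 and Fbxl14, so larger differences are not outside the data for those 3, of which Fbxl14 is named after its values were seen. The compounds were given at 1 µM and 2.5 µM, and no other dose was measured here.

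**Figure D5:**
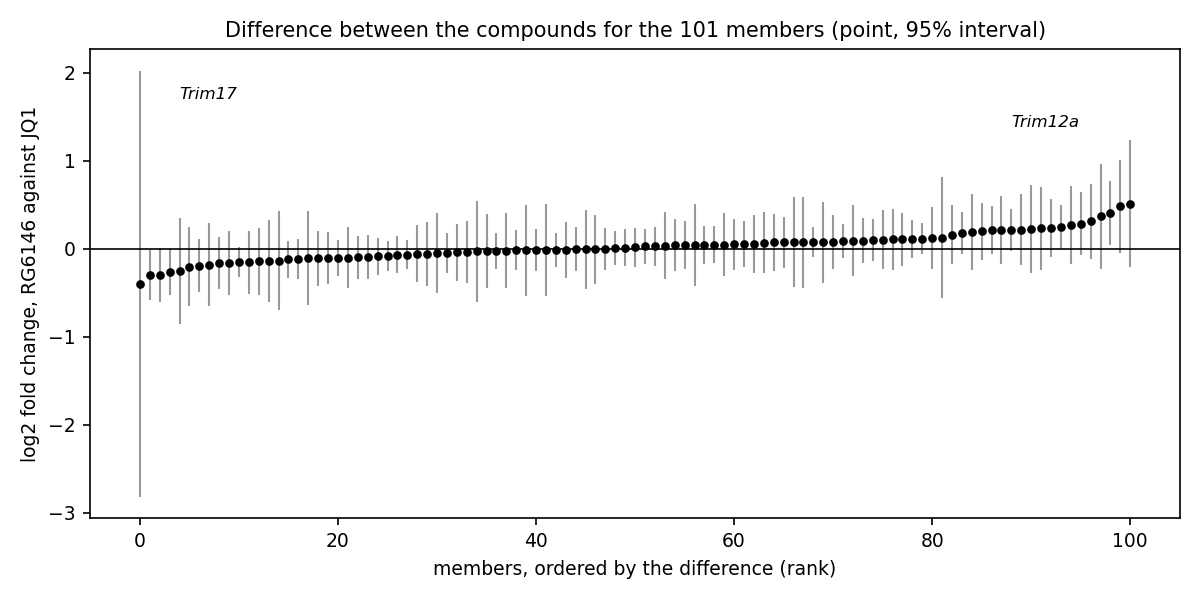
Log2 fold change of RG6146 against JQ1 (y axis; point, with its 95% interval as a bar) for the 101 members, ordered by the difference (x axis, rank). Trim17 has by far the widest interval, and Trim12a the highest point (0.51).

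The members work with E1 and E2 enzymes, cullins and ligases that carry other names. Of 38 tested E1, E2 and ubiquitin genes 7 (18.4%) were higher and none lower after JQ1, and 4 (10.5%) higher and none lower after RG6146. Of all tested genes 13.6% and 12.5% were higher and 15.4% and 13.5% lower. Ube2h, an E2 enzyme of the CTLH ligase, stood at 50.2, 54.0 and 47.5 CPM under DMSO, 93.0, 88.3 and 101 CPM after JQ1 and 86.2, 85.0 and 95.6 CPM after RG6146. All treated libraries were above DMSO, and the changes were 0.89 ± 0.09 after JQ1 (adjusted p = 1.4e-06) and 0.82 ± 0.09 after RG6146 (adjusted p = 4.34e-06). Uba6, the second E1 for ubiquitin, changed by 0.55 ± 0.13 after JQ1 (adjusted p = 0.00387) and 0.57 ± 0.13 after RG6146 (adjusted p = 0.00325), and Ube2o, a large hybrid of E2 and E3, by 0.39 ± 0.12 after JQ1 (adjusted p = 0.0170) and 0.51 ± 0.12 after RG6146 (adjusted p = 0.00326). Under library size scaling 3 of the 38 were higher and 3 lower after each compound.

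Of 34 tested genes of the SCF and cullin core and of NEDD8 conjugation, 6 were higher and 4 lower after JQ1 (29.4% called), and 6 higher and 2 lower after RG6146 (23.5%), against 28.9% and 26.0% of all tested genes. Cul5, the scaffold of a cullin ligase that works with the RING member Rnf7, stood at 72.0, 58.0 and 78.9 CPM under DMSO, 34.1, 37.6 and 39.2 CPM after JQ1 and 39.2, 45.0 and 37.7 CPM after RG6146. It was lower in all treated libraries and changed by -0.92 ± 0.12 after JQ1 (adjusted p = 1.84e-05) and -0.78 ± 0.12 after RG6146 (adjusted p = 0.000106). Rnf7 itself did not pass (-0.19 ± 0.11 after JQ1, adjusted p = 0.218, and -0.01 ± 0.11 after RG6146, adjusted p = 0.953) and is named after its values were seen. Glmn, which blocks Rbx1, changed by 0.32 ± 0.11 after JQ1 (adjusted p = 0.0432) and 0.50 ± 0.11 after RG6146 (adjusted p = 0.00321), and Cks1b, the cofactor of the F-box protein Skp2, by 0.44 ± 0.08 after JQ1 (adjusted p = 0.000575) and 0.26 ± 0.08 after RG6146 (adjusted p = 0.0254). Library size scaling gave 1 higher and 6 lower after JQ1, and 1 and 4 after RG6146.

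Among 5 tested F-box genes with other names, 1 was higher (Kdm2b) and 2 lower after each compound. Over all tested genes 13.6% and 12.5% were higher, and 15.4% and 13.5% lower. Skp2, which sends the cell-cycle inhibitor p27 to degradation, stood at 41.6, 44.9 and 44.4 CPM under DMSO, 22.1, 25.9 and 28.0 CPM after JQ1 and 30.1, 25.6 and 27.9 CPM after RG6146. Its treated libraries were all below DMSO, and the changes were -0.79 ± 0.12 after JQ1 (adjusted p = 7.77e-05) and -0.64 ± 0.12 after RG6146 (adjusted p = 0.000520). Btrc, the paralogue of Fbxw11, stood at 17.5, 18.8 and 13.7 CPM under DMSO, 7.16, 6.66 and 6.54 CPM after JQ1 and 8.89, 7.09 and 8.63 CPM after RG6146, with DMSO well above both treated groups. It changed by -1.29 ± 0.19 after JQ1 (adjusted p = 6.27e-05) and -1.02 ± 0.19 after RG6146 (adjusted p = 0.000531).

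Among 48 tested TRIM and RING genes with other names, 11 were higher and 7 lower after JQ1, and 10 higher and 8 lower after RG6146, or 37.5% called each time. Of all tested genes 28.9% were called after JQ1 and 26.0% after RG6146. Pml, the TRIM protein that builds nuclear bodies, stood at 18.1, 12.5 and 14.9 CPM under DMSO, 6.10, 5.47 and 6.54 CPM after JQ1 and 9.12, 5.57 and 5.68 CPM after RG6146. All treated libraries were below DMSO, and it changed by -1.34 ± 0.23 after JQ1 (adjusted p = 0.000235) and -1.16 ± 0.22 after RG6146 (adjusted p = 0.000773). Bmi1, the Polycomb partner of Rnf2, changed by -0.69 ± 0.11 after JQ1 (adjusted p = 0.000114) and -0.60 ± 0.11 after RG6146 (adjusted p = 0.000463), and the ligase gene Pja2 by 1.13 ± 0.14 after JQ1 (adjusted p = 1.07e-05) and 1.04 ± 0.14 after RG6146 (adjusted p = 3.16e-05). Library size scaling gave 7 higher and 12 lower after JQ1, and 7 and 11 after RG6146. Of 22 tested HECT ligases, which use another catalytic domain, 5 were higher and none lower after JQ1 (22.7% called), and 7 higher and 1 lower after RG6146 (36.4%). Those shares stand beside the same 28.9% and 26.0% of all tested genes. Smurf2, a ligase of the TGF-beta pathway, changed by 0.83 ± 0.14 after JQ1 (adjusted p = 0.000199) and 0.90 ± 0.14 after RG6146 (adjusted p = 9.91e-05), Herc2 by 0.66 ± 0.10 after JQ1 (adjusted p = 0.000138) and 0.61 ± 0.11 after RG6146 (adjusted p = 0.000347) and Ube3c by 0.48 ± 0.10 after JQ1 (adjusted p = 0.00176) and 0.36 ± 0.10 after RG6146 (adjusted p = 0.0141). Library size scaling gave 4 HECT genes higher and 4 lower after JQ1, and 3 and 2 after RG6146.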

How the data were processed

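RNA from the cells, 500 ng a sample, was made into QuantSeq 3′ mRNA libraries and sequenced in single-end reads of 75 bases on a NextSeq 500, per the labels' protocols. The authors deposited 1 table of raw read counts per Ensembl gene for the 9 libraries. Per the submitters' processing notes, the build was mm10, and the tools were HISAT2 2.1.0, featureCounts, limma, cutadapt 1.7, bcl2fastq 2.17.1.14 and FastQC 0.11.5. For the annotation release, strand setting and multi-mapping reads, the choice is not given in the sources used here. No per-sample column was left unused (0).

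Gene symbols came from GENCODE M21. 92 ERCC spike-in rows were kept out of library totals and tests, and genes without a symbol took 1.84% to 2.65% of gene counts. The counts were filtered with filterByExpr (minimum count 10) to 11002 genes, scaled by TMM and fitted with edgeR 4.0.16 (quasi-likelihood, 1 design over all 9 libraries, no covariate) in R 4.3.3. Adjusted p-values are Benjamini-Hochberg values from edgeR over all tested genes, with a threshold of 0.05. Self-tests were run on simulated data. Alternatives were DESeq2 1.42.0, limma voom (limma 3.58.1), other scalings and filters, a replicate block and leaving libraries out, with their effect in the closing section. Leaving out the 2 libraries highest in myeloid markers was chosen after seeing the data. Figures used matplotlib 3.10.9, and the alignment of promoter windows used Biopython 1.88.

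The members and gene lists were chosen with earlier results of these data known. Genes named in the text were the 10 largest rises and 10 largest falls per compound among called members whose treated libraries all lay beyond all DMSO libraries, 14 members of known role whatever their result, the 5 members of highest mean, the 3 genes on either side of the minimum and up to 3 genes of smallest p per related list; most others are said to be named after their values were seen, and neighbouring or overlapping genes were also chosen so. 1 member that this rule names is not reported here. Replicate pairs differed beyond counting noise (chi-square per degree of freedom 6.87 to 17.0 over 9 pairs), so each library counted as its own replicate. All replicates are cultures of 1 clone, so p-values measure the spread between these cultures. A single read was worth 0.199 to 0.293 CPM, which limits the precision of members of a few CPM.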

Additional observations from a re-analysis of the deposited data

How the results depend on the processing

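With library size scaling, 12 members were higher and 19 lower after JQ1, and 13 were higher after RG6146. ERCC scaling gave 4 higher and 6 lower after JQ1, and 5 higher and 4 lower after RG6146, and DESeq2 gave 11 higher after RG6146. Leaving out 1 library at a time gave 15 to 22 members higher and 10 to 13 lower after JQ1, and 14 to 22 higher and 9 to 12 lower after RG6146. For RG6146 against JQ1 every alternative, limma voom and DESeq2 included, called 0 members. The cause of these differences was not tested. Of 51 calls of named members none changed sign under the alternatives run. ERCC scaling ended 32 of them, DESeq2 15, library size scaling 10 and limma voom 3, and 13 ended without DMSO replicate 2 and JQ1 replicate 2.

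With the replicate block, 22 members were higher and 12 lower after JQ1, and 22 higher and 11 lower after RG6146. The block ended 1 of the 51 named calls, and with ERCC scaling 4. Deviations over all tested genes did not follow the number in every pair (9 correlations from -0.063 to 0.10), so the numbers were not taken as pairs. The ERCC share did move with the number, and ERCC scaling with the block gave 19 members higher and 12 lower after JQ1, and 22 higher and 11 lower after RG6146.

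Changes of sign were seen for values that had not passed the test. Trim25 changed sign with library size scaling (-0.088 after JQ1, -0.051 after RG6146) and without DMSO replicate 2 and JQ1 replicate 2 (-0.11 after JQ1), and leaving out 1 library gave -0.10 to 0.12 after JQ1. Rnf20 changed sign with library size scaling (-0.10 after JQ1, -0.050 after RG6146) and with a minimum of 10 CPM (-0.00263 after JQ1), and leaving out 1 library gave -0.018 to 0.13 after JQ1. Rnf8 was at -0.035 after RG6146 with library size scaling. Leaving out 1 library gave -0.26 to 0.0028 for Rnf40 and -0.091 to 0.020 for Rnf168 after RG6146. Without DMSO replicate 2 and JQ1 replicate 2, Rnf168 was at 0.012 and 0.020, and Trim17 at 0.0032 after JQ1. Depth limits members of a few CPM, where 1 read is worth 0.199 to 0.293 CPM.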

Other observations

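Some genes of the same symbol pattern lay under the minimum of 5 CPM and are no members, but passed the filter on low counts. The 3 genes below are named after their values were seen. Each passed that filter through the group where it is high, so their levels are a description, with no test. Fbxo32 encodes atrogin-1, the F-box protein known from muscle wasting. Its level was 4.33, 5.69 and 6.95 CPM under DMSO, 0.631, 1.19 and 1.57 CPM after JQ1 and 1.1, 0.759 and 0.682 CPM after RG6146. Every treated library was below every DMSO library. Trim36, a ligase tied to microtubules, stood at 1.32, 1.42 and 0.719 CPM under DMSO, 5.26, 4.28 and 5.23 CPM after JQ1 and 3.65, 5.31 and 2.95 CPM after RG6146. All treated libraries were above all DMSO libraries. Trim21, the cytosolic antibody receptor, stood at 3.39, 3.13 and 2.64 CPM under DMSO, 0.631, 1.19 and 1.57 CPM after JQ1 and 1.37, 1.77 and 1.36 CPM after RG6146. All treated libraries were below all DMSO libraries.

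Gene span, from start to end of the gene model, was read for all members. After JQ1 the median span was 27.6 kb for members called higher, 36.7 kb for those called lower and 24.9 kb for those not called. Their median levels under DMSO were 29.6, 23.8 and 20.7 CPM. Over all tested genes with a symbol the order was the same, with median spans of 22.3, 27.6 and 16.0 kb. The median levels of those genes under DMSO were 33.8, 24.9 and 17.4 CPM. These are descriptions over genes and carry no test.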
